A study of Mus musculus with 36 samples.

Results

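The genes described here are 10 transcription factors of mesenchymal cells, Tcf21, Twist1, Twist2, Prrx1, Prrx2, Snai1, Snai2, Foxc1, Foxc2 and Meox1. They and the marker lists read beside them were chosen by name with earlier results of these data known, so their p-values are not independent evidence. All 10 genes were found among the 51734 gene symbols of the RNA-seq count table used here. Expression was followed in 18 libraries of the E14 mouse line, taken as embryonic stem cells (ESC) or as neural precursor cells (NPC), in 6 groups of 3. The ESC groups were wild type, MLL3/4 dCD and MLL2 dTAG, and the NPC groups were the same 3 genotypes. MLL2, MLL3 and MLL4 add methyl groups to histone H3 and are the products of Kmt2b, Kmt2c and Kmt2d. In the MLL3/4 dCD line both MLL3 and MLL4 are catalytically dead, and in the MLL2 dTAG line MLL2 carries a degron that the compound dTAG-13 recognises. The labels list dTAG-13 as a treatment of every library used here, wild type included, with retinoic acid (RA) added for NPC. For NPC the dose was 2 µM from day 1 of differentiation, with harvest on day 4, and no duration is given for ESC. Each genotype was a line of its own, so the edit and the line cannot be told apart. The labels number 3 replicates per group without saying whether they were separate cultures, so p-values measure only the spread between these samples, which may be technical. The other 18 samples of the series were not analysed here.

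Mesenchymal transcription factors direct the change from epithelial sheets to migratory, matrix-producing cells, and each marks a part of the embryonic mesoderm or of the neural crest. TCF21, TWIST1 and TWIST2 are basic helix-loop-helix (bHLH) proteins that bind DNA with E-protein partners, a pairing that ID proteins block. SNAI1 and SNAI2 are zinc-finger repressors of epithelial genes such as Cdh1, PRRX1 and PRRX2 are paired-related homeodomain proteins of limb and facial mesenchyme, FOXC1 and FOXC2 are forkhead factors of paraxial mesoderm, vessels and kidney, and MEOX1 is a homeodomain factor of the somites.

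Total counts ranged from 19430860 to 46041277 per library. Levels are given in CPM, counts per 1000000 counts of the library, after scaling by trimmed mean of M-values (TMM), and 3 counts in a library equalled 0.0662 to 0.160 CPM. Changes were tested with edgeR over 20511 genes and are called where the adjusted p was below 0.05. In NPC, wild-type Kmt2c stood at 175 ± 3.89 CPM (SD, n = 3), against 166 ± 5.16 in MLL3/4 dCD and 322 ± 19.6 in MLL2 dTAG. A catalytic edit and a protein degron need not change the mRNA, so the levels of Kmt2b, Kmt2c and Kmt2d do not check the labels. The neural progenitor list of 10 genes summed to 530 to 540 CPM in wild-type NPC and 184 to 196 CPM in wild-type ESC. The pluripotency list of 6 genes summed to 23.7 to 24.3 and 2826 to 3178 CPM in those groups. Most of the difference in the neural sum came from Ncam1, at 171 CPM in wild-type NPC and 22.2 in wild-type ESC, and Dcx, at 81.4 and 0.0709 CPM. In the same order Pax6 stood at 38.9 and 1.75 CPM, but Sox1 at 3.10 ± 0.240 and 3.05 ± 0.460 CPM.

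By GENCODE M21 on GRCm38, the 10 genes are protein-coding loci on 8 chromosomes. Tcf21 lies at chr10:22817281-22820174 on the minus strand, Twist1 at chr12:33957671-33959829 (+) and Twist2 at chr1:91801461-91848028 (+). Prrx1 lies at chr1:163245119-163313710 (-) and Prrx2 at chr2:30834972-30881251 (+). Snai1 lies at chr2:167538195-167542814 (+) and Snai2 at chr16:14705852-14709385 (+). Foxc1 lies at chr13:31806633-31812476 (+), Foxc2 at chr8:121116171-121118895 (+) and Meox1 at chr11:101877510-101894374 (-). Twist2, Prrx1, Meox1 and Tcf21 overlap antisense genes, and the strand setting of the read counting is not given in the sources used here, so reads from the opposite strand cannot be told apart. The annotated genes overlapping Twist2, Prrx1, Foxc2 and Meox1 held at most 16 counts in any library. The antisense gene at Tcf21, Gm10824, is not a row of the table used here.

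Promoter sequences of 4 members are shown because these genes differ in how their mRNA responded in the MLL2 dTAG line and in how many CpG dinucleotides their promoters hold. MLL2 binds CpG-rich promoters through a CXXC zinc finger. The sequences are taken before the annotated start from RefSeq (GRCm38.p6), written 5′ to 3′ on the gene's own strand, with each CG in capitals. Bases within GENCODE exons were left out, so the stretches of Tcf21 and Prrx1 end short of the RefSeq start. They cover chr10:22820175-22820393 (-) for Tcf21, chr1:163313711-163313900 (-) for Prrx1, chr12:33957421-33957670 (+) for Twist1 and chr2:167537945-167538194 (+) for Snai1.
Tcf21: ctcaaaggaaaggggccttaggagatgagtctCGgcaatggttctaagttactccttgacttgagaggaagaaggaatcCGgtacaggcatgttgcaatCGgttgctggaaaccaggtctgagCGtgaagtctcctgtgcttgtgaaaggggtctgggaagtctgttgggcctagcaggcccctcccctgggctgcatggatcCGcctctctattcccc
Prrx1: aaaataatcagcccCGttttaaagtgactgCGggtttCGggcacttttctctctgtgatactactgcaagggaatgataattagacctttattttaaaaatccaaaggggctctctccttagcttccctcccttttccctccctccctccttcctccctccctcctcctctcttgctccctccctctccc
Twist1: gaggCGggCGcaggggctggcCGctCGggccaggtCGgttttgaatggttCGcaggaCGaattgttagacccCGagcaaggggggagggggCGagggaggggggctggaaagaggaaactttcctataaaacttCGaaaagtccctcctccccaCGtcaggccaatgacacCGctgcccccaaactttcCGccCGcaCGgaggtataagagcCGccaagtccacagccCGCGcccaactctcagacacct
Snai1: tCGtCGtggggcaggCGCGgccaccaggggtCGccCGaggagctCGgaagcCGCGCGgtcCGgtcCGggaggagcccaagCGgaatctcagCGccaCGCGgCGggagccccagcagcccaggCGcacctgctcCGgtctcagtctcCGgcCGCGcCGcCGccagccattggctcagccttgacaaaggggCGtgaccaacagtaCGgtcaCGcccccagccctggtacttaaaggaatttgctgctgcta
In the full window of 250 bases before to 50 bases after the start, Tcf21 held 8 CpG and Prrx1 held 6. The median of 32851 mouse promoters of the same length was 7. The windows of Twist1, Twist2, Prrx2, Snai1 and Foxc1 held 27, 25, 28, 34 and 32 CpG. For each of these 5, at least 83.1% of all promoters held that many CpG or fewer. The E-box CAGGTG, searched on both strands, was present once in the Snai1 window, in none of the other 6 windows, and in 20.2% of all promoters. Promoters of Snai2, Foxc2 and Meox1 were not shown. A match of letters is a description of the sequence and not a bound site.

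Levels in wild-type NPC differed widely among the members when read per kilobase of exon. Twist1 was highest at 16.0 ± 1.57 CPM per kb (SD, n = 3), followed by Snai2 at 11.6 ± 0.573 and Tcf21 at 9.76 ± 0.149. Snai1, Foxc2, Meox1 and Prrx2 lay between 3.43 and 6.33 CPM per kb. Foxc1 stood at 1.20 ± 0.126, Prrx1 at 0.927 ± 0.102 and Twist2 at 0.342 ± 0.0722 CPM per kb. By this measure, Twist1, Prrx2, Snai2 and Foxc2 were the more abundant members of their family pairs. For the Prrx pair the order depended on the exon unions, 11.066 kb for Prrx1 and 1.961 kb for Prrx2. In CPM, Prrx1 stood at 10.3 ± 1.13 and Prrx2 at 6.73 ± 0.479.

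**Figure D1:**
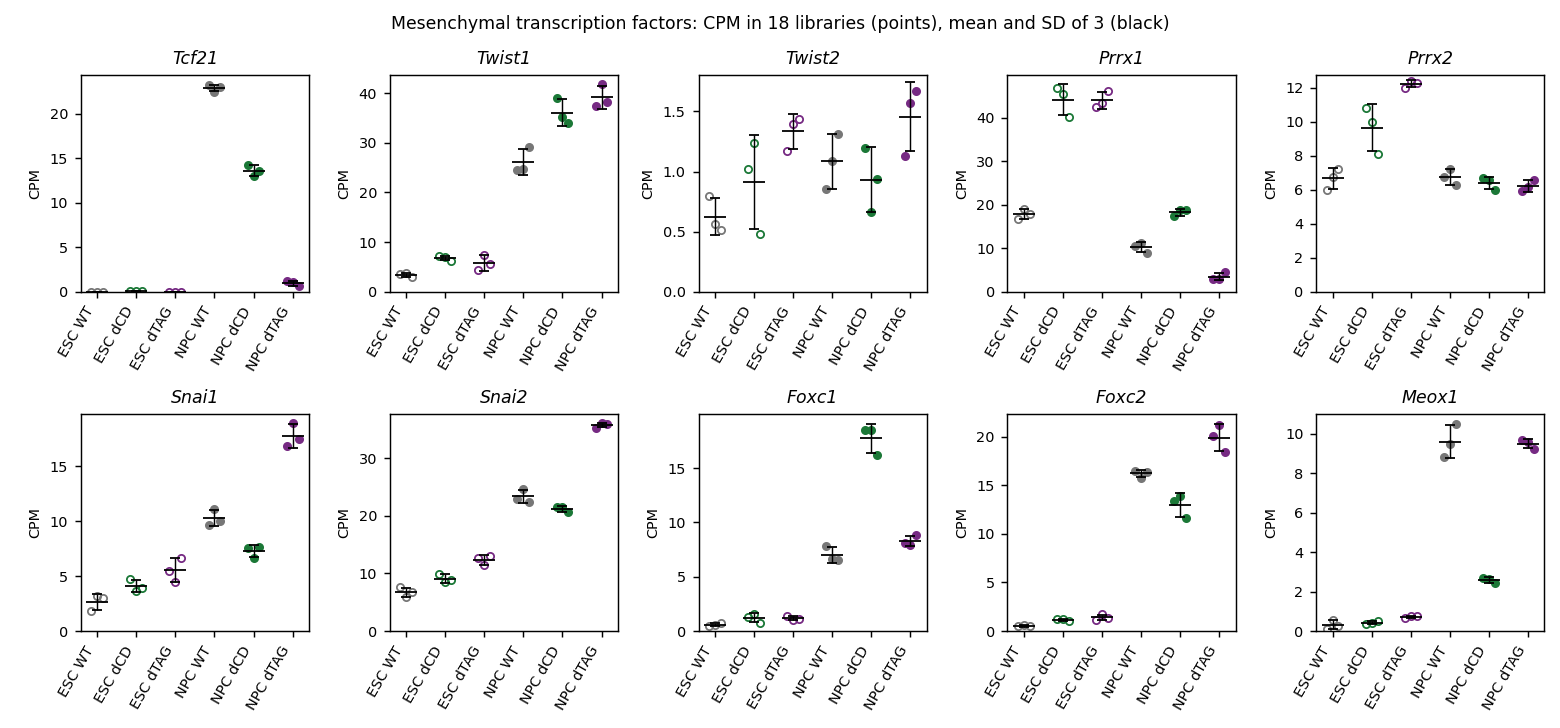
Level of each of the 10 genes in CPM (vertical axes, linear from 0) in 6 groups of 3 libraries, with points for libraries and black bars for mean and SD. Tcf21 is at or near 0 in all ESC libraries and falls from 22.9 CPM in wild-type NPC to 0.956 CPM in MLL2 dTAG NPC, and Prrx1 is higher in ESC than in NPC of the same genotype.

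The stage difference is given as a description with no test, since the genes were named for their presence in NPC cultures. In wild type, 7 members were clearly more abundant in NPC than in ESC, with no overlap between the libraries of the 2 stages. Tcf21 had 0 counts in all 3 wild-type ESC libraries and 22.5 to 23.2 CPM in NPC, at least 599-fold higher than 3 counts over the ESC group allow. Meox1 was 30.6-fold, Foxc2 29.1-fold and Foxc1 11.9-fold higher in NPC by the ratio of means. Twist1 was 7.59-fold, Snai1 3.86-fold and Snai2 3.46-fold higher. These 7 are the members whose wild-type NPC mean exceeded the ESC mean by more than 3-fold. The share of all genes that differ so between the stages was not computed, so the count is no result particular to the members.

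The Prrx genes were not more abundant in NPC, and Twist2 was higher by less than 2-fold. Prrx1 was lower in NPC than in ESC in each genotype. Its wild-type ESC libraries held 16.7, 19.0 and 17.8 CPM and its wild-type NPC libraries 10.5, 11.2 and 9.02 CPM, a ratio of 0.576. The ratio was 0.414 in MLL3/4 dCD and 0.0794 in MLL2 dTAG. Prrx2 stood at 6.73 ± 0.479 CPM in wild-type NPC and 6.67 ± 0.617 in wild-type ESC (SD, n = 3), with overlapping libraries. Twist2 was scarce throughout, between 0.484 and 1.67 CPM in the 18 libraries, and its NPC to ESC ratio was 1.74 in wild type, where the NPC libraries (0.854 to 1.31 CPM) lay above the ESC ones (0.510 to 0.798 CPM). The ratio was 1.02 in MLL3/4 dCD and 1.09 in MLL2 dTAG, with overlap in both.

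The summed level of the 10 genes was 132 to 135 CPM in wild-type NPC, 132 to 142 in MLL3/4 dCD and 139 to 147 in MLL2 dTAG. The sum therefore moved little between NPC genotypes, whereas single members moved in both directions. In ESC the sum was 37.5 to 41.0 CPM in wild type, 70.3 to 83.5 in MLL3/4 dCD and 81.3 to 88.4 in MLL2 dTAG. Prrx1 alone gave a mean of 44.2 CPM in MLL3/4 dCD ESC and 44.0 CPM in MLL2 dTAG ESC.

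Against wild-type NPC, 7 of the 10 members changed in MLL3/4 dCD NPC, 3 upward and 4 downward, where 53.5% of all 20511 genes were called, 26.7% higher and 26.8% lower. With so many genes called, the members' count is near the background and is no result about them as a group. Their median log2 change was -0.19, against -0.02 over all genes. Meox1 and Foxc1 moved most. In bulk RNA, fewer cells of a type and less RNA per cell cannot be told apart, here and in the comparisons that follow.

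Meox1 fell in MLL3/4 dCD NPC. Its wild-type NPC libraries held 8.83, 9.50 and 10.5 CPM and its MLL3/4 dCD libraries 2.70, 2.65 and 2.43 CPM. All mutant libraries lay below all wild-type libraries, a log2 change of -1.89 (SE 0.14, edgeR adjusted p = 7.5e-14). Tcf21, a bHLH factor of the epicardium and of kidney and lung mesenchyme, also fell, from 23.2, 22.5 and 23.0 CPM to 14.3, 13 and 13.6 CPM. That was a log2 change of -0.75 (SE 0.10, edgeR adjusted p = 5.0e-08), with the groups apart.

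Foxc1 and Foxc2 moved in opposite directions in the same libraries. Foxc1 held 7.84, 6.65 and 6.50 CPM in wild-type NPC and 18.5, 18.5 and 16.2 CPM in MLL3/4 dCD NPC. It rose by 1.34 on the log2 scale (SE 0.11, edgeR adjusted p = 1.4e-12). Foxc2 held 16.5, 15.8 and 16.4 CPM in wild type and 13.4, 13.9 and 11.6 CPM in the mutant. It fell by 0.32 (SE 0.09, edgeR adjusted p = 0.0024), and neither gene's groups overlapped.

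Among the remaining members, Prrx1 rose from 10.5, 11.2 and 9.02 CPM to 17.4, 18.7 and 18.8 CPM, a log2 change of 0.83 (SE 0.09, edgeR adjusted p = 7.9e-10). Twist1 rose by 0.46 (SE 0.09, edgeR adjusted p = 1.8e-05), from 24.5 to 29.1 CPM in wild type to 33.9 to 39.1 CPM in the mutant. Snai1 fell by 0.50 (SE 0.12, edgeR adjusted p = 0.00048), from 9.68 to 11.1 CPM to 6.65 to 7.65 CPM. The groups of these 3 genes did not overlap. Snai2, at 21.2 ± 0.562 CPM against 23.4 ± 1.16 (SD, n = 3), was not called, with an edgeR adjusted p of 0.082 and a 95% interval from -0.28 to -0.002 on the log2 scale. It passed with counts halved (-0.15) and with GC and length offsets (-0.17). Prrx2 and Twist2 were not called, with intervals from -0.29 to 0.15 and from -0.84 to 0.37, and their groups overlapped.

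Other marker lists moved in the MLL3/4 dCD NPC libraries as well. The neural crest list of 9 genes summed to 159 to 161 CPM against 84.1 to 87.8 in wild type, although Sox10, which defines migrating crest, stood at 0.0972 ± 0.0340 CPM (SD, n = 3). Of its 9 genes 4 rose and 2 fell, and Pax3 rose most on the log2 scale, from 6.05 ± 0.691 to 19.7 ± 1.12 CPM. Most of the rise in the sum came from Ets1, from 30.8 ± 1.62 to 92.6 ± 2.59 CPM. The neural progenitor list summed to 703 to 758 CPM against 530 to 540, with 5 of 10 genes higher, led by Nes from 91.1 ± 1.08 to 231 ± 15.7 CPM, and none lower. The paraxial mesoderm and somite list of 11 genes summed to 10.5 to 11.5 CPM against 8.10 to 8.46, and Msgn1, which defines presomitic mesoderm, had 0 counts in every library. The pluripotency list summed to 39.8 to 42.6 CPM against 23.7 to 24.3, with 2 of 6 genes higher. The lateral and cardiac mesoderm list (214 to 222 CPM, 2 of 8 higher and 2 lower), the endothelium and blood list (43.5 to 47.5 CPM, 1 of 5 tested lower) and the endoderm list (158 to 161 CPM, 4 of 6 lower) were at or below the wild-type range. Of all genes, 26.7% were called higher and 26.8% lower in this comparison. The part of these lists in the changes of the 10 genes was not tested.

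In MLL2 dTAG NPC, 6 of the 10 members changed against wild-type NPC, 4 upward and 2 downward, where 61.7% of all genes were called, 33.3% higher and 28.4% lower. The count is again near the background. The members' median log2 change was 0.27, against 0.03 over all genes. The wild-type libraries are the same as in the preceding comparison.

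Tcf21 fell most of all members. Its MLL2 dTAG NPC libraries held 1.16, 1.06 and 0.652 CPM, 112 counts in all, against 22.5 to 23.2 CPM in the 3 wild-type libraries. The log2 change was -4.58 (SE 0.13, edgeR adjusted p = 1.4e-23). Prrx1 also fell, to 3.02, 3 and 4.46 CPM from 10.5, 11.2 and 9.02 CPM. Its log2 change was -1.56 (SE 0.11, edgeR adjusted p = 2.9e-14), and the groups of both genes lay far apart. They are the 2 members with the fewest CpG among the 7 promoters read. That coincidence was seen after the values were known and has no test. In MLL2 dTAG ESC, Prrx1 instead rose, by 1.30 on the log2 scale. Of the 5 CpG-rich members read, Twist1 and Snai1 rose in MLL2 dTAG NPC, while Twist2, Prrx2 and Foxc1 gave no call.

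Both Snail genes rose in MLL2 dTAG NPC. Snai1 went from 9.68, 11.1 and 9.99 CPM to 16.8, 18.9 and 17.5 CPM, a log2 change of 0.79 (SE 0.11, edgeR adjusted p = 6.8e-08). Snai2 went from 23.0, 24.7 and 22.4 CPM to 35.3, 36.1 and 35.9 CPM, a log2 change of 0.61 (SE 0.07, edgeR adjusted p = 3.5e-10). In each pair the lowest mutant library stood above the highest wild-type one. Twist1, which shares the E-box binding of the bHLH class, rose to 37.4, 41.8 and 38.3 CPM, a log2 change of 0.59 (SE 0.08, edgeR adjusted p = 1.8e-07). Foxc2 rose by 0.30 (SE 0.08, edgeR adjusted p = 0.0026), to 20.1, 21.2 and 18.4 CPM, also without overlap.

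The other members gave no call in MLL2 dTAG NPC. Meox1, which fell in MLL3/4 dCD NPC, stood at 9.51 ± 0.245 CPM against 9.60 ± 0.826 in wild type (SD, n = 3), with a 95% interval of -0.26 to 0.23 on the log2 scale. Foxc1 stood at 8.29 ± 0.467 CPM against 7.00 ± 0.735, with no overlap, and a log2 difference of 0.25 (edgeR adjusted p = 0.070). Foxc1 passed with counts halved, with GC and length offsets and without wild-type NPC replicate 1 (0.33). Twist2 and Prrx2 overlapped wild type, with intervals of -0.14 to 0.99 and -0.33 to 0.10.

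The MLL2 dTAG NPC libraries also held more mRNA of some genes listed for other lineages. The 6 pluripotency genes summed to 160 to 162 CPM against 23.7 to 24.3 in wild-type NPC, and all 6 rose, Pou5f1 most, from 1.01 ± 0.234 to 26.9 ± 2.08 CPM (SD, n = 3). The 8 lateral and cardiac mesoderm genes summed to 527 to 538 CPM against 222 to 231, with 5 higher and none lower. Myl7 rose most on the log2 scale, from 2.75 ± 0.483 to 16.3 ± 1.33 CPM. Most of the rise in the sum came from Gata4, at 62.6 and 253 CPM, and Gata6, at 127 and 219 CPM. The 7 endothelium and blood genes summed to 213 to 219 CPM against 60.5 to 63.1, with Ptprc at 0 counts in both, and 3 of 5 tested were higher. Nearly all of that sum was Kdr, which went from 59.5 ± 1.04 to 209 ± 3.53 CPM. The 6 endoderm genes summed to 280 to 289 CPM against 168 to 174, with 5 higher and 1 lower. Gata6, which is on both this list and the lateral one, gave most of that rise as well. The neural progenitor list summed to 561 to 579 CPM, with 4 of 10 genes higher and 3 lower. The neural crest list summed to 120 to 121 CPM, with 5 of 9 genes higher and 2 lower, and the somite list to 5.80 to 6.15 CPM, with 1 higher and 4 lower. On the crest list Ets1 went from 30.8 ± 1.62 to 68.3 ± 0.564 CPM. Of all genes, 33.3% were called higher and 28.4% lower in this comparison. The part of these lists in the changes of the 10 genes was not tested.

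**Figure D2:**
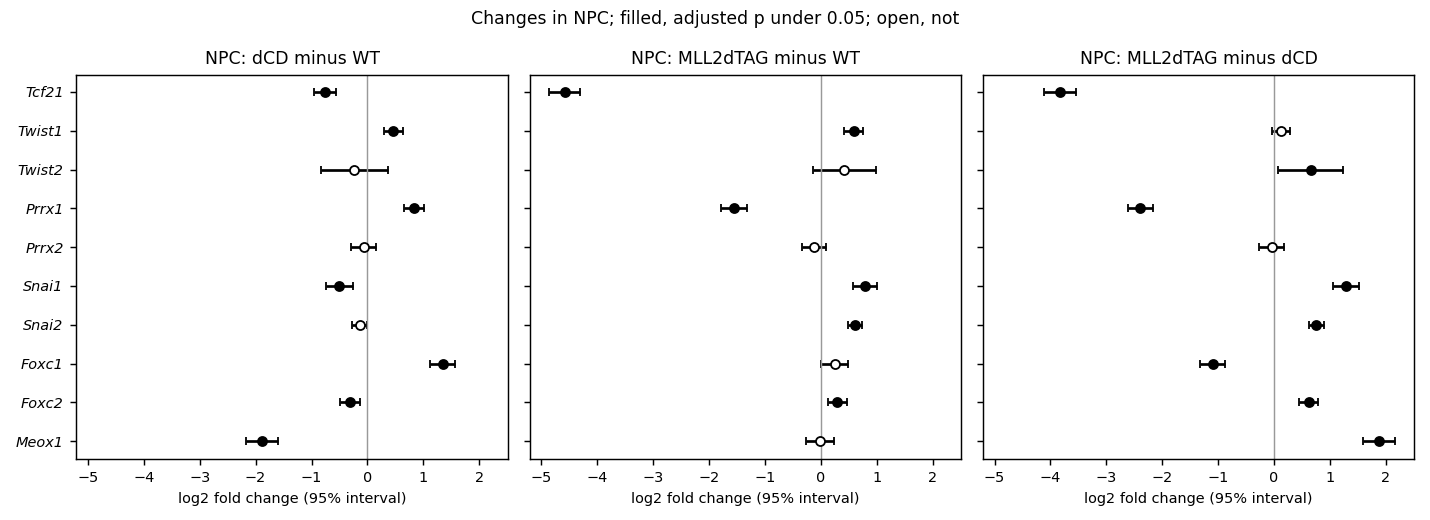
Log2 fold change of each gene (horizontal axis, with 95% interval) between NPC genotypes, 3 libraries per group, with filled points for adjusted p below 0.05. Tcf21 is lowest in both comparisons that contain MLL2 dTAG, while Meox1 is lower in MLL3/4 dCD and stays at the wild-type level of 9.60 CPM in MLL2 dTAG, at 9.51 CPM.

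Compared directly, MLL2 dTAG NPC and MLL3/4 dCD NPC differed at 8 of the 10 members, 5 higher and 3 lower in MLL2 dTAG, where 55.9% of all genes were called, 31.6% higher and 24.3% lower. The median log2 difference was 0.37 for the members and 0.05 for all genes. Lower in MLL2 dTAG were Tcf21 by a log2 difference of -3.83 (SE 0.14), Prrx1 by -2.39 (SE 0.11) and Foxc1 by -1.10 (SE 0.11), with edgeR adjusted p of 4.8e-21, 2.5e-20 and 9.1e-11. Higher were Meox1 by 1.87 (SE 0.14), Snai1 by 1.29 (SE 0.11), Snai2 by 0.75 (SE 0.07) and Foxc2 by 0.62 (SE 0.09), with edgeR adjusted p of 6.4e-14, 3.3e-12, 3.9e-12 and 1.4e-07. The libraries of these 7 genes did not overlap between the lines.

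Twist2 was called higher by 0.66 (SE 0.28, edgeR adjusted p = 0.049), but its libraries overlapped, at 1.13, 1.57 and 1.67 CPM in MLL2 dTAG and 1.20, 0.662 and 0.938 CPM in MLL3/4 dCD. The call was lost in DESeq2 (adjusted p = 0.061), under each other scaling, without the low-count filter, in the fit of only these groups and with GC and length offsets. It was also lost without replicate 2 (0.60) or 3 (0.55) of MLL2 dTAG and without replicate 2 (0.46) or 3 (0.66) of MLL3/4 dCD. Twist1, at 37.4 to 41.8 and 33.9 to 39.1 CPM, and Prrx2 did not pass, with intervals of -0.04 to 0.29 and -0.26 to 0.17.

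Some paralogs of a pair moved apart in NPC. Ratios per library, which do not depend on library scaling, were computed after these values were seen. The log2 ratio of Foxc1 to Foxc2 in CPM per kb was -2.32 ± 0.13 in wild-type NPC, -0.65 ± 0.04 in MLL3/4 dCD and -2.36 ± 0.18 in MLL2 dTAG (SD, n = 3). The log2 ratio of Prrx1 to Prrx2 was -1.89 ± 0.07 in wild-type NPC, -0.99 ± 0.13 in MLL3/4 dCD and -3.35 ± 0.26 in MLL2 dTAG, so that the lines lay on opposite sides of wild type. The change came from Prrx1, since Prrx2 stayed between 5.90 and 7.21 CPM in all 9 NPC libraries. Snai1 to Snai2 moved less, from -0.87 ± 0.05 in wild type to -1.23 ± 0.13 and -0.70 ± 0.07. Twist1 to Twist2 was 5.57 ± 0.21, 6.27 ± 0.37 and 5.73 ± 0.27 in the same order. Of 12 comparisons of these ratios between NPC genotypes, 9 showed no overlap and gave a two-sided exact permutation p of 0.10, the smallest that 3 against 3 libraries allow, or 0.13 after Benjamini-Hochberg adjustment over the 12. How many ratios of other gene pairs separate in this way was not computed, so the count is no result about these pairs.

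**Figure D3:**
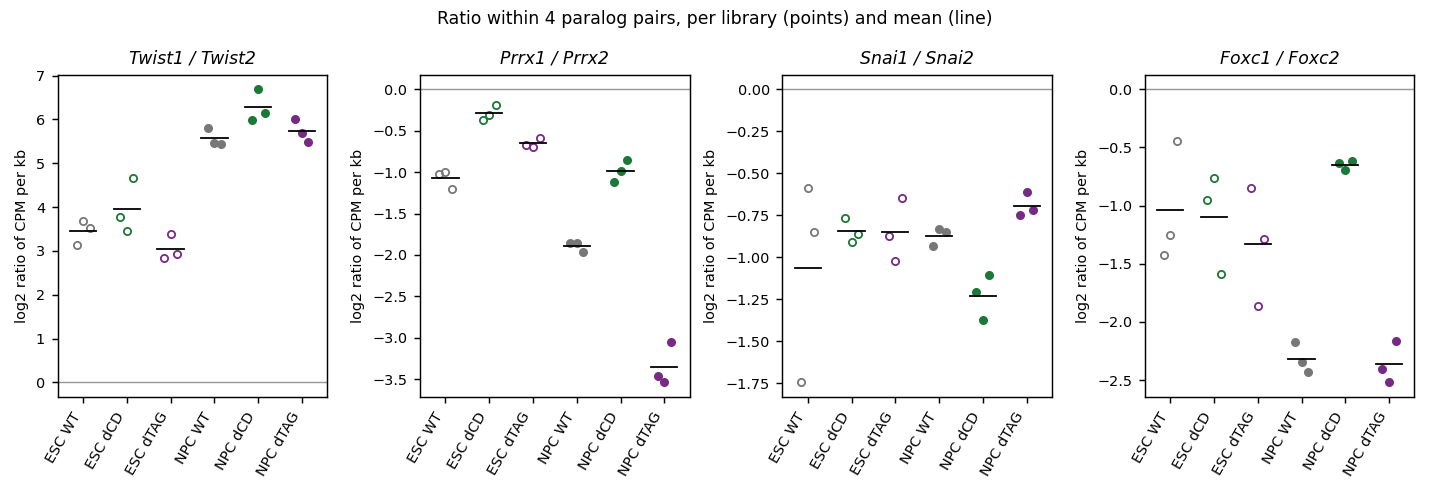
Log2 ratio of CPM per kb (vertical axes) between the first and the second gene of 4 paralog pairs in each library (points) and its mean (line), for 6 groups of 3. In NPC the Foxc1 to Foxc2 ratio is -0.65 in MLL3/4 dCD against -2.32 in wild type, and the Prrx1 to Prrx2 ratio spreads from -3.35 in MLL2 dTAG to -0.99 in MLL3/4 dCD.

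In ESC the picture was of one direction. Tcf21, which passed the low-count filter only through its NPC libraries, is left out of the ESC counts and described on its own. In MLL3/4 dCD ESC, 7 of the other 9 members were called against wild-type ESC and all 7 were higher, where 48.3% of all genes were called and 25.7% were called higher. In MLL2 dTAG ESC, all 9 were called and higher, where 56.9% of genes were called and 28.7% were called higher. The median log2 change of the 9 members was 0.58 in MLL3/4 dCD and 1.02 in MLL2 dTAG, and that of all genes 0.02 and -0.001. Both comparisons share the wild-type ESC libraries, and the members were not drawn at random, so nothing particular to them is read from these shares. Tcf21, Twist2, Foxc1, Foxc2 and Meox1 stayed under 2 CPM in all ESC libraries.

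Both Prrx genes rose in both ESC lines. Wild-type ESC libraries held 16.7, 19.0 and 17.8 CPM, MLL3/4 dCD libraries 46.9, 45.5 and 40.2 CPM, and MLL2 dTAG libraries 42.5, 43.4 and 46.2 CPM. The log2 changes were 1.30 (SE 0.08, edgeR adjusted p = 4.3e-15) and 1.30 (SE 0.08, edgeR adjusted p = 8.9e-16). Both lines lay above wild type without overlap, and they overlapped each other. Prrx2 rose as well, from 6.01, 6.76 and 7.24 CPM to 10.8, 10 and 8.12 CPM in MLL3/4 dCD and 12, 12.4 and 12.3 CPM in MLL2 dTAG. Its log2 changes were 0.51 (SE 0.11, edgeR adjusted p = 0.00021) and 0.86 (SE 0.11, edgeR adjusted p = 9.0e-09).

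The Snail genes and Twist1 also rose in both ESC lines. Snai2 held 7.56, 5.97 and 6.73 CPM in wild type, 9.94, 8.53 and 8.87 CPM in MLL3/4 dCD and 12.6, 11.4 and 13 CPM in MLL2 dTAG, with log2 changes of 0.45 and 0.89 (edgeR adjusted p = 0.00023 and 1.6e-10). Snai1 rose by 0.56 and 1.02 (edgeR adjusted p = 0.0068 and 9.3e-07), from 1.81 to 3.18 CPM to 3.64 to 4.69 and 4.50 to 6.65 CPM. The first of these calls was lost without wild-type ESC replicate 1 (0.40) or MLL3/4 dCD replicate 1 (0.46). Twist1 rose by 0.99 and 0.77 (edgeR adjusted p = 1.6e-06 and 4.2e-05), from 2.99 to 3.71 CPM to 6.26 to 7.17 and 4.32 to 7.45 CPM. None of the mutant libraries of these 3 genes overlapped wild type.

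The scarce members gave wider errors in ESC. Foxc2 held 0.476 to 0.663 CPM in wild-type ESC, and rose by 1.04 (SE 0.27) in MLL3/4 dCD and 1.32 (SE 0.24) in MLL2 dTAG (edgeR adjusted p = 0.0014 and 1.5e-05). Foxc1 rose by 0.97 (SE 0.28) and 0.94 (SE 0.27), with edgeR adjusted p of 0.0048 and 0.0032. Its MLL3/4 dCD libraries, 1.32, 1.57 and 0.745 CPM, overlapped wild type at 0.426, 0.597 and 0.747 CPM, and that call was lost without MLL3/4 dCD replicate 2 (0.73). Twist2 rose in MLL2 dTAG by 1.14 (SE 0.33, edgeR adjusted p = 0.0033). In MLL3/4 dCD its log2 difference was 0.58, which was called only without replicate 3 of that line (0.90).

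Meox1 and Tcf21 were near the limit of detection in ESC. Meox1 held 0.106, 0.564 and 0.272 CPM in wild type and 0.659, 0.745 and 0.757 CPM in MLL2 dTAG, a log2 change of 1.07 (SE 0.33, edgeR adjusted p = 0.0058). That value was 1.79 without wild-type ESC replicate 2, so 1 library sets much of its size. The log2 difference of Meox1 in MLL3/4 dCD was 0.32 with an interval of -0.47 to 1.12. Tcf21 had 6 counts over the MLL3/4 dCD ESC libraries, 2 in each, and 0 counts in wild type and MLL2 dTAG ESC. That is 2.11 times the level of 3 counts over the wild-type group, and with 6 counts it is no firm lower bound. The gene was in the ESC test only because its NPC libraries passed the filter, so nothing is read from its call, which was lost with counts halved.

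The dependence of each change on the stage was tested by an interaction term, the NPC change minus the ESC change. Tcf21 is again left out, since it has hardly any ESC counts. For MLL3/4 dCD, 7 of the other 9 members were called, all with the lower change in NPC, where 42.9% of all genes were called, 20.0% with the higher and 22.9% with the lower change. For MLL2 dTAG, 5 of the 9 were called, all lower, where 49.0% of genes were called, 26.4% higher and 22.6% lower. The widest gap was that of Prrx1 in MLL2 dTAG, which rose by 1.30 in ESC and fell by 1.56 in NPC, an interaction of -2.86 (SE 0.14, edgeR adjusted p = 1.5e-18). Snai1 and Foxc2 in MLL3/4 dCD rose in ESC and fell in NPC, with interactions of -1.06 (SE 0.21) and -1.36 (SE 0.28) and edgeR adjusted p of 7.1e-05 and 0.00013.

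Foxc1 was the exception among the forkhead genes. Its interaction was 0.38 in MLL3/4 dCD, with an interval of -0.27 to 1.02, so a rise of similar size at both stages is within the error. In MLL2 dTAG its interaction was -0.70 (edgeR adjusted p = 0.052), and it passed in 6 other settings of the fit, among them DESeq2 (-0.72). It also passed with some single libraries left out, such as wild-type ESC replicate 3 (-0.90). Twist1 and Snai1 in MLL2 dTAG rose at both stages, and their interactions were not called, with intervals of -0.54 to 0.17 and -0.62 to 0.16.

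**Figure D4:**
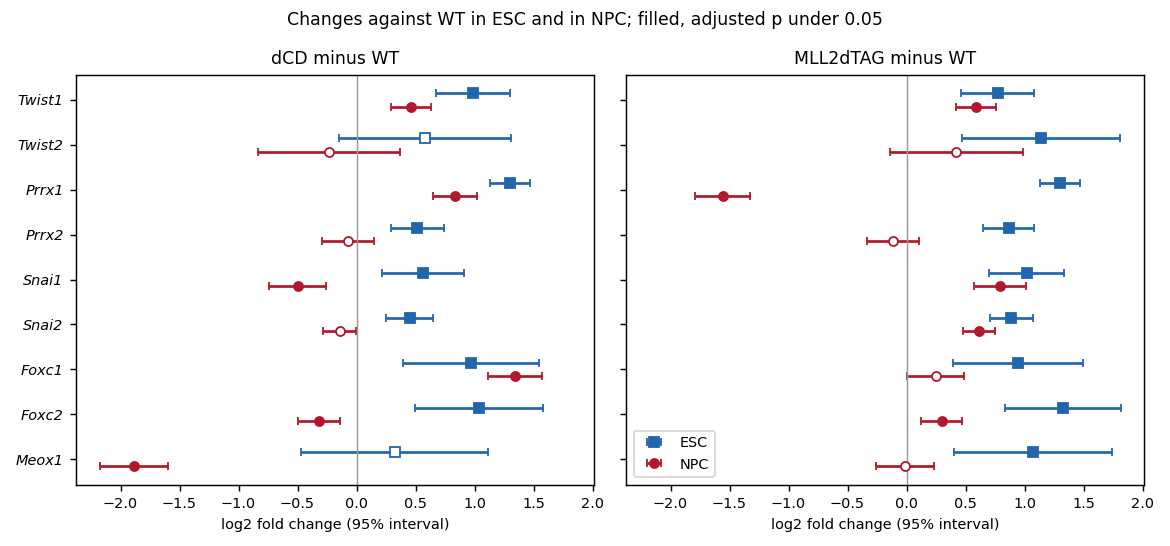
Log2 fold change against wild type of the same stage (horizontal axis, with 95% interval) in ESC (squares) and NPC (circles) for MLL3/4 dCD and MLL2 dTAG, 3 libraries per group, with filled marks for adjusted p below 0.05. Tcf21 is left out because its ESC groups hold 0 to 6 counts, and Prrx1 in MLL2 dTAG runs from 1.30 in ESC to -1.56 in NPC.

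A wider list of 31 other mesenchymal transcription factors, 29 of them tested, was read beside the members. There, 14 were higher and 7 lower in MLL3/4 dCD NPC, with a median log2 change of 0.49, where 26.7% of all genes were called higher and 26.8% lower. Tbx20, a T-box factor of the heart, rose most, from 0.842 ± 0.134 to 11.9 ± 0.401 CPM (SD, n = 3), while Tbx5, a T-box factor of heart and forelimb, fell from 7.67 ± 0.320 to 1.79 ± 0.156 CPM. In MLL2 dTAG NPC, 16 were higher and 8 lower, with a median of 0.46, where 33.3% of all genes were called higher and 28.4% lower. Foxf2, a forkhead factor of gut mesenchyme, rose from 0.169 ± 0.0432 to 4.23 ± 0.531 CPM, and Osr2, a zinc-finger factor of palate and limb, fell from 28.4 ± 0.815 to 3.28 ± 0.153 CPM. In ESC, 15 were higher and 2 lower in each line. Of all genes, 25.7% were called higher and 22.6% lower in MLL3/4 dCD ESC, and 28.7% and 28.2% in MLL2 dTAG ESC. The called factors moved both ways in NPC and mostly upward in ESC. As the list was not drawn at random, nothing particular to it is read from these counts.

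Genes for the E-protein partners of the bHLH members, and for the ID proteins that block this pairing, were read as well. Of 7 E-protein and ID genes, 3 rose and 3 fell in MLL3/4 dCD NPC, and 4 rose and 1 fell in MLL2 dTAG NPC, none by 2-fold. Of all genes, 26.7% and 33.3% were called higher and 26.8% and 28.4% lower in these comparisons. Id4 rose in both, from 3.88 ± 0.342 CPM to 5.31 ± 0.602 and 7.52 ± 1.28 CPM (SD, n = 3). Id1 fell in MLL3/4 dCD, from 70.4 ± 4.70 to 52.8 ± 6.23 CPM, and the E-protein gene Tcf3 fell by 0.12 on the log2 scale in MLL2 dTAG, from 229 ± 10.5 to 211 ± 3.70 CPM. The 4 that rose in MLL2 dTAG NPC were the ID genes. There Id1 stood at 88.8 CPM, Id2 at 203 against 158 in wild type, and Id3 at 258 against 195. The E-protein genes Tcf4 and Tcf12, at 132 and 262 CPM against 138 and 260 in wild type, were not called in MLL2 dTAG NPC.

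Genes for mesenchymal products, such as collagens, mesenchymal cadherins and smooth muscle proteins, had a high summed level at both stages, with wide differences between single genes. In wild-type ESC most of the sum was Fn1, at 2849 CPM. Cdh2, Cdh11, Acta2 and Tagln stood there at 8.79, 9.81, 15.4 and 2.28 CPM. The 20 genes summed to 3065 to 3136 CPM in wild-type NPC, 5070 to 5342 in MLL3/4 dCD and 4628 to 4777 in MLL2 dTAG, and to 4072 to 4663, 4291 to 4694 and 5452 to 5561 CPM in the same order in ESC. Of the 20, 15 rose and 3 fell in MLL3/4 dCD NPC, with a median log2 change of 0.80. In MLL2 dTAG NPC, 13 rose and 6 fell, with a median of 0.81. Acta2, smooth muscle actin, rose in both lines, from 40.4 ± 0.595 to 541 ± 16.1 and 219 ± 4.84 CPM (SD, n = 3). Col1a2, a chain of type I collagen, fell in MLL2 dTAG NPC, from 153 ± 1.80 to 21.3 ± 1.73 CPM. In ESC, 18 rose and 1 fell in each line. Of all genes, 26.7% were called higher in MLL3/4 dCD NPC and 33.3% in MLL2 dTAG NPC. The shares in ESC were 25.7% and 28.7% in the same order.

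Epithelial genes moved almost entirely downward. Of 13, 12 fell in MLL3/4 dCD NPC and 12 fell in MLL2 dTAG NPC, with medians of -0.44 and -1.22, and none rose. In ESC, 11 fell and 1 rose in MLL3/4 dCD, and 12 fell in MLL2 dTAG. Of all genes, 26.8% were called lower in MLL3/4 dCD NPC and 28.4% in MLL2 dTAG NPC. The shares in ESC were 22.6% and 28.2% in the same order. Cldn3, a tight-junction claudin, fell most in NPC, from 4.92 ± 0.489 to 1.62 ± 0.379 CPM in MLL3/4 dCD and to 0.454 ± 0.164 CPM in MLL2 dTAG (SD, n = 3). Cdh1, the E-cadherin gene that Snail proteins are known to repress, was picked after its values were seen. It held 79.1 ± 5.04 CPM in wild-type NPC, 70.0 ± 3.54 in MLL3/4 dCD and 28.7 ± 0.428 in MLL2 dTAG. It fell in MLL2 dTAG NPC, where Snai1 and Snai2 rose, and by 0.17 on the log2 scale in MLL3/4 dCD NPC (SE 0.04, edgeR adjusted p = 0.00036), where Snai1 fell. A link between these levels was not tested.

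**Figure D5:**
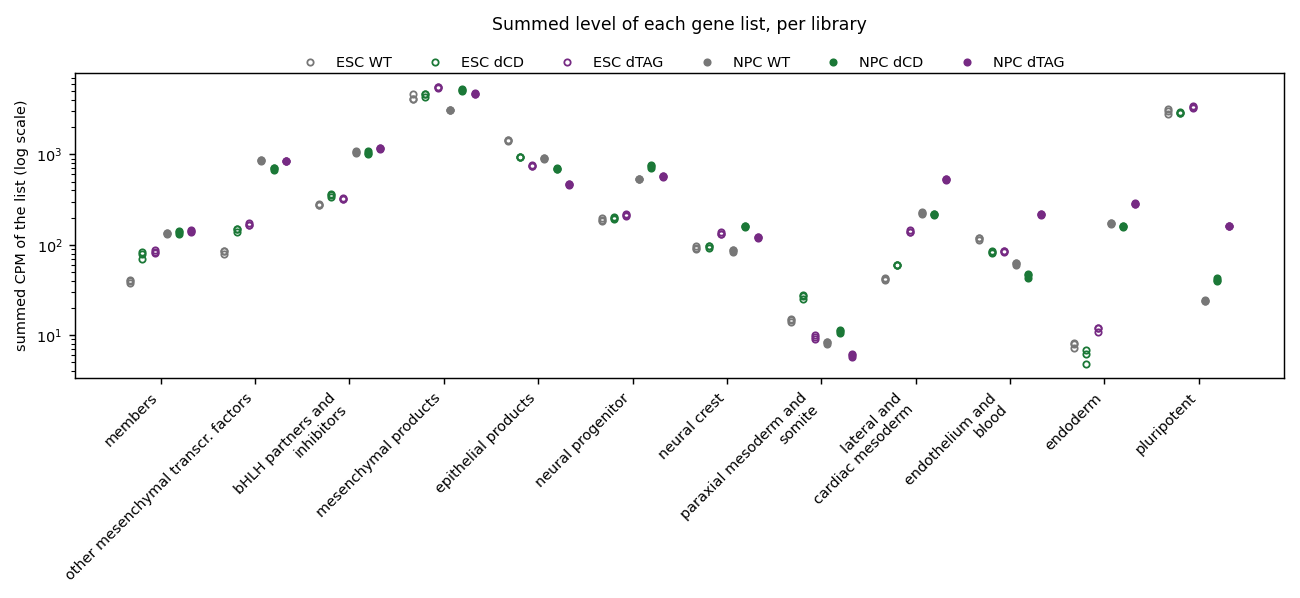
Summed CPM (vertical axis, log scale) of the 10 members and of each of 11 gene lists in every library, with open points for ESC and filled points for NPC. The members sum to 132 to 147 CPM in all NPC libraries, while the pluripotency list is at 160 to 162 CPM in MLL2 dTAG NPC against 23.7 to 24.3 CPM in wild-type NPC.

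For each member, the genes whose level followed it most closely over the 9 NPC libraries were sought among 15478 genes by Pearson's r of log2 CPM. The 9 libraries are 3 groups of 3, so a high r mainly states that the order of the 3 genotypes is shared. Tcf21 was followed by Rimklb (r = 0.999) and Gm11400 (0.998), Prrx1 by Bves (0.999) and 9330132A10Rik (0.996), and Meox1 by Bcar3 and Pdp2 (both 0.996). Snai1 was followed by Fbxo21 (0.997) and Fbln1 (0.996), Snai2 by Reg4 and Mcm2 (both 0.997), Foxc1 by Aff1 (0.996) and Inhba (0.995), and Foxc2 by Dpysl2 (0.994) and Zfp251 (0.991). Twist1 was followed by Zdhhc4 (0.990) and Mrps11 (0.988). Twist2 and Prrx2, whose NPC groups overlapped, reached only 0.945 with Rabac1 and 0.923 with Mettl10. Among the members themselves, Snai1 and Snai2 had r = 0.965 over these libraries, Prrx1 and Snai1 -0.972, and Foxc1 and Meox1 -0.974.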

How the data were processed

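RNA-seq libraries were prepared with a stranded mRNA kit, per the labels' protocols. The values deposited by the authors are whole-number read counts for each symbol, and HTSeq counting is named in the submitters' processing notes. The aligner, build, HTSeq version and strand setting are not given in the sources used here. A set of 18 columns that could not be matched to a single sample was not used. Between 60.8% and 66.5% of counts from 1 to 10 in a library were even, so counts halved and rounded down were tried as an alternative. The 18 pairs of replicates within groups gave a chi-square per degree of freedom of 2.15 to 9.52, and none was merged. Fragments counted more than once would raise this value by themselves. Spread beyond sampling noise is therefore not established for the pairs at the low end.

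Counts of the 18 libraries were fitted in edgeR 4.0.16 (R 4.3.3, limma 3.58.1) with 1 mean per group, TMM factors (0.9673 to 1.048), the tool's filter on low counts and the quasi-likelihood F test. P-values were adjusted by Benjamini-Hochberg over the 20511 genes kept, and intervals are 95%. All 10 members passed the filter, Tcf21 only through its NPC libraries. Alternatives were DESeq2 1.42.0, other scalings, no filter, only the groups compared, the replicate block, halved counts, GC and length offsets (96% of tested genes had values) and leaving out each library. The fit was tested on simulated data.

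The members and the gene lists were chosen with earlier results of these data known. All members are named. The rule for list genes takes the called genes with the highest and the lowest change per NPC comparison, given a mean of at least 1 CPM in a group compared, and only some of those it takes are printed. The 2 genes most like each member were also taken. Levels per kb use the exon union of GENCODE M21.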

Additional observations from a re-analysis of the deposited data

Results flagged for a closer look

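The following changes differed between ESC and NPC by the interaction term of the edgeR fit, given as the NPC change minus the ESC change on the log2 scale. Both sets share the wild-type libraries of their stage. In MLL3/4 dCD, the difference was -2.21 for Meox1 (adjusted p = 5.1e-05), -1.36 for Foxc2 (0.00013), -1.06 for Snai1 (7.1e-05), -0.59 for Snai2 (0.0001), -0.58 for Prrx2 (0.0022), -0.53 for Twist1 (0.015) and -0.47 for Prrx1 (0.0023). In MLL2 dTAG, it was -2.86 for Prrx1 (adjusted p = 1.5e-18), -1.09 for Meox1 (0.01), -1.03 for Foxc2 (0.0011), -0.98 for Prrx2 (1.1e-06) and -0.27 for Snai2 (0.041). The Twist1 difference in MLL3/4 dCD was not called without wild-type ESC replicate 3 (-0.42, adjusted p = 0.084). The Meox1 difference in MLL2 dTAG was not called without wild-type ESC replicate 1 (-0.80) or 3 (-0.92). The Snai2 difference in MLL2 dTAG was not called without 1 of 8 libraries in turn, where it ranged from -0.28 to -0.19. Meox1 had 27 counts in all over the wild-type ESC libraries, so its differences rest on few reads.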

How the results depend on the processing

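The number of members called, here with Tcf21 counted, stayed within 1.5 times the reported one under every alternative. Leaving out 1 library gave 7 to 7 in MLL3/4 dCD NPC, 6 to 7 in MLL2 dTAG NPC, 7 to 8 between these lines, 7 to 9 in MLL3/4 dCD ESC, 9 to 9 in MLL2 dTAG ESC, 7 to 9 for the MLL3/4 dCD interaction and 4 to 6 for that of MLL2 dTAG. Of 1098 gene values under alternatives, 1050 kept direction and call, 27 lost the call, 18 gained it and 3 changed sign, none of the latter called. With 1 library left out, Meox1 in MLL2 dTAG NPC ran from -0.071 to 0.052, with 0.007 without MLL2 dTAG replicate 3. The Twist1 interaction in MLL2 dTAG ran from -0.339 to 0.020, the latter without MLL2 dTAG ESC replicate 2. The change of the Foxc1 to Foxc2 ratio in MLL2 dTAG NPC ran from -0.147 to 0.031, with 0.024 without wild-type replicate 1. The alternatives for ratios were chosen after seeing the data.

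Same-numbered libraries of different groups did not deviate together (correlations of -0.039 to 0.047 over 18 pairs) and 2 of 18 libraries correlated best with their own number. No common deviation by number was thus seen, but this cannot tell whether a number marks a shared culture or day. With the replicate number as a block, 4 members were called for the MLL2 dTAG interaction, without Snai2 (adjusted p = 0.052), and 7 between the NPC lines, without Twist2 (0.065). The block moved no other count of members. Depth limits Tcf21, Meox1, Foxc1, Foxc2 and Twist2 in ESC, where groups held 0 to 138 counts. In the ESC fits of only the groups compared, Tcf21 did not pass the filter and has no value.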
